A study of Mus musculus with 11 samples.

Results

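The genes described here are 34 genes of the ATF4 stress response and of serine, glycine and cysteine metabolism, chosen by name and found among the 55487 gene identifiers of a bulk RNA sequencing table. MC38, a mouse colon carcinoma line, carried either of 2 short hairpin RNAs, a control (shNC) or one targeting Fgf21 (shFgf21), and the study asked how FGF21 made by the tumour acts on T cells. Libraries labelled as tumours numbered 3 for shNC (title numbers 1, 2 and 6, genotype label WT) and 3 for shFgf21 (1, 2 and 3, genotype label FGF21 Knockdown), all with MC38 as the cell line and mesenchymal cell as the cell type. Libraries labelled as T cells sorted from such tumours numbered 3 for shNC and 2 for shFgf21, and their titles join several numbers, with no statement of pooling. The genotype label of shFgf21 sorted replicate 2 reads FGF22 Knockdown, so the sorted counts and folds of members, and their pathway counts, are also given without it; a single shFgf21 library is then left, and p-values take its spread from the other libraries of the fit. No label gives the age, sex or strain of the animals, the sequence or vector of a hairpin, or whether replicates are separate animals, so p-values measure only the spread between these libraries.

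Cells that lack amino acids, or whose endoplasmic reticulum (ER) holds unfolded protein, phosphorylate the translation factor eIF2α. Most translation then slows while the transcription factor ATF4 is made, and ATF4 with its partners of the C/EBP family switches on amino acid transporters and enzymes that make serine, glycine, asparagine, proline and cysteine. Serine and glycine feed one-carbon units into folate for nucleotide synthesis, and cysteine limits glutathione. Growing tumour cells often run this programme, and Fgf21 itself is a known ATF4 target.

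ATF4 and C/EBP proteins bind together at an element spelled TGATGNAA on either strand, so promoter sequences are shown for members that hold it. RefSeq promoters (GRCm38.p6, the assembly also called mm10; 250 bases before to 50 after the transcript start) were matched for 29 of the 34 genes. The element lay in 11 of these 29 (37.9%), against 1219 of 27025 gene symbols (4.51%) over all promoters of the same length. Because the genes were chosen by name as part of the ATF4 response, this comparison is not a test of them. Each window below runs 5′ to 3′ on the gene's own strand, with the element in capitals and 10 bases on each side.
Asns: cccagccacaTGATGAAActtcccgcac
Pycr1: gccctgtgtaTGATGCAAtgcacaaggc
Slc7a11: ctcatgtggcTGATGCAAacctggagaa
Slc7a11, second site: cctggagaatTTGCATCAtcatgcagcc
Pck2: gccttcaaagTTACATCAgtatcttaca
Nupr1: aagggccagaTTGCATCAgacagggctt
Chac1: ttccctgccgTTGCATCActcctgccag
Vldlr: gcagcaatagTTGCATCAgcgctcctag
Atf3: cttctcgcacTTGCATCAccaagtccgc
Herpud1: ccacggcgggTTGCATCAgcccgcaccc

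In Asns, Pycr1 and the first Slc7a11 site the element read TGATGNAA on the gene's strand, and in the other windows it read as the reverse complement. The Asns window is chr6:7693215-7693242 (minus strand), with the element starting 23 bases before the transcript start. The Slc7a11 windows, chr3:50443662-50443689 and chr3:50443643-50443670 (minus strand), overlap and place 2 elements 66 and 47 bases before the start. The other windows are chr11:120643834-120643861 (Pycr1, minus), chr14:55540153-55540180 (Pck2, plus), chr7:126625563-126625590 (Nupr1, minus), chr2:119351039-119351066 (Chac1, plus), chr19:27216810-27216837 (Vldlr, plus), chr1:191183426-191183453 (Atf3, minus) and chr8:94386307-94386334 (Herpud1, plus). Trib3 and Slc1a4 also hold the element, at or just beyond the transcript start, and their windows are not printed. The ER stress element, CCAAT and CCACG with 9 bases of any kind between them, a motif of genes induced by unfolded protein, was found in Hspa5 alone among the 29, against 0.137% of all symbols. It lies 65 bases before the start, in the window chr2:34772015-34772053 (plus strand).
Hspa5: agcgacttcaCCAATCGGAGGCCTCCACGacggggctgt

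A match describes letters in a window and not binding. Promoters of Eif4ebp1, Aldh1l2, Cth, Slc7a5 and Slc1a5 were not matched.

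Libraries held 14944013 to 19099350 counts, so a count of 0 allows up to 0.157 to 0.201 CPM (counts scaled to library size), counting error only. Fgf21 had 2 counts in shNC tumour replicate 2, 1 count in shNC tumour replicate 6 and 0 in all other libraries, so the knockdown could not be checked at this depth. The sorted libraries held the 9 T cell markers at a summed 263 to 537 CPM and the 10 macrophage markers at 10513 to 18172 CPM, so "sorted libraries" is used here for a mixture in which macrophage transcripts outweigh those of T cells. These libraries also held the 7 fibroblast markers at a summed 3892 to 4885 CPM, against 4506 to 7895 CPM in tumour libraries. The 5 epithelial markers summed to 16.4 to 43.4 CPM in sorted libraries and to only 2.14 to 6.82 CPM in tumour libraries. In the tumour libraries the T cell sum was at most 2.3 CPM, with Cd3e at 0 throughout, and the macrophage sum at most 22.3 CPM, so markers of leukocytes expected in whole tumour tissue were at or near 0. Between any 2 libraries of a group the counts differed by more than sampling noise, with a chi-square per gene of 12.3 or more.

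By the deposited FPKM, which divides counts by a gene length and library size, an ER chaperone and 2 stress transcription factors ranked highest of the 34 genes in shNC tumours. The length implied by these values exceeds the locus for some genes, so the order is approximate. For Atf4 it was 4088 bases, on a locus of chr15:80255184-80257541, and for Hspa5 6952 bases, on chr2:34771970-34777547. The mean FPKM was 207 for Hspa5, the ER chaperone BiP, 193 for Atf3, a stress-induced transcription factor, and 169 for Atf4. Phgdh, the first enzyme of serine synthesis, followed at 109, then Slc7a5, the large neutral amino acid transporter LAT1, at 79.9 and Atf5, a transcription factor related to ATF4, at 75.8. Across the 6 tumour libraries Hspa5 was at 161 to 214 FPKM, Atf3 at 149 to 238 and Atf4 at 123 to 228, so the first 3 were not separated by their spread. Phgdh, at 87.6 to 119 FPKM, lay below Atf4 in every library. Of the 33 pairs of neighbours in the order of all 34 genes, 3 had ranges that did not overlap: Atf4 and Phgdh, Shmt1 and Cth, and Slc7a11 and Cbs. Slc7a11, the cystine importer xCT, was at 3.10 FPKM, and Cbs, which starts cysteine synthesis from homocysteine, was listed at 0. Cbs had 9 counts in shNC sorted replicate 3, 1 in shFgf21 sorted replicate 2 and 1 in shFgf21 tumour replicate 1, and none elsewhere. It passed no filter on low counts, so each comparison tested the other 33 genes.

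In tumour libraries, most of these genes were lower with the Fgf21 hairpin, and the lowest relative to control were Cth, Slc6a9, Slc7a11, Trib3 and Aldh1l2. By edgeR's quasi-likelihood test, adjusted by Benjamini-Hochberg over 14950 genes, 0 of the 33 passed an adjusted p of 0.05, where 5 of all genes (0.0334%) did. At an unadjusted p under 0.05, 12 members (36.4%) were lower and 0 higher, against 3.61% of all genes lower and 2.61% higher. The log2 fold change was below 0 for 26 of 33 members, against 51.2% of all genes, and its median was -0.32 against -0.0071. In 12 members every shFgf21 library lay below every shNC library (36.4%, against 6.19% of all genes), and in 0 members did it lie above (against 5.40%). DESeq2's Wald test placed 3 members past the threshold, all lower (Slc6a9, Cth and Aldh1l2), among 115 genes in all, and limma voom placed Slc6a9 there. Without shFgf21 tumour replicate 2, the members lower at an unadjusted p under 0.05 numbered 7.

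**Figure D1:**
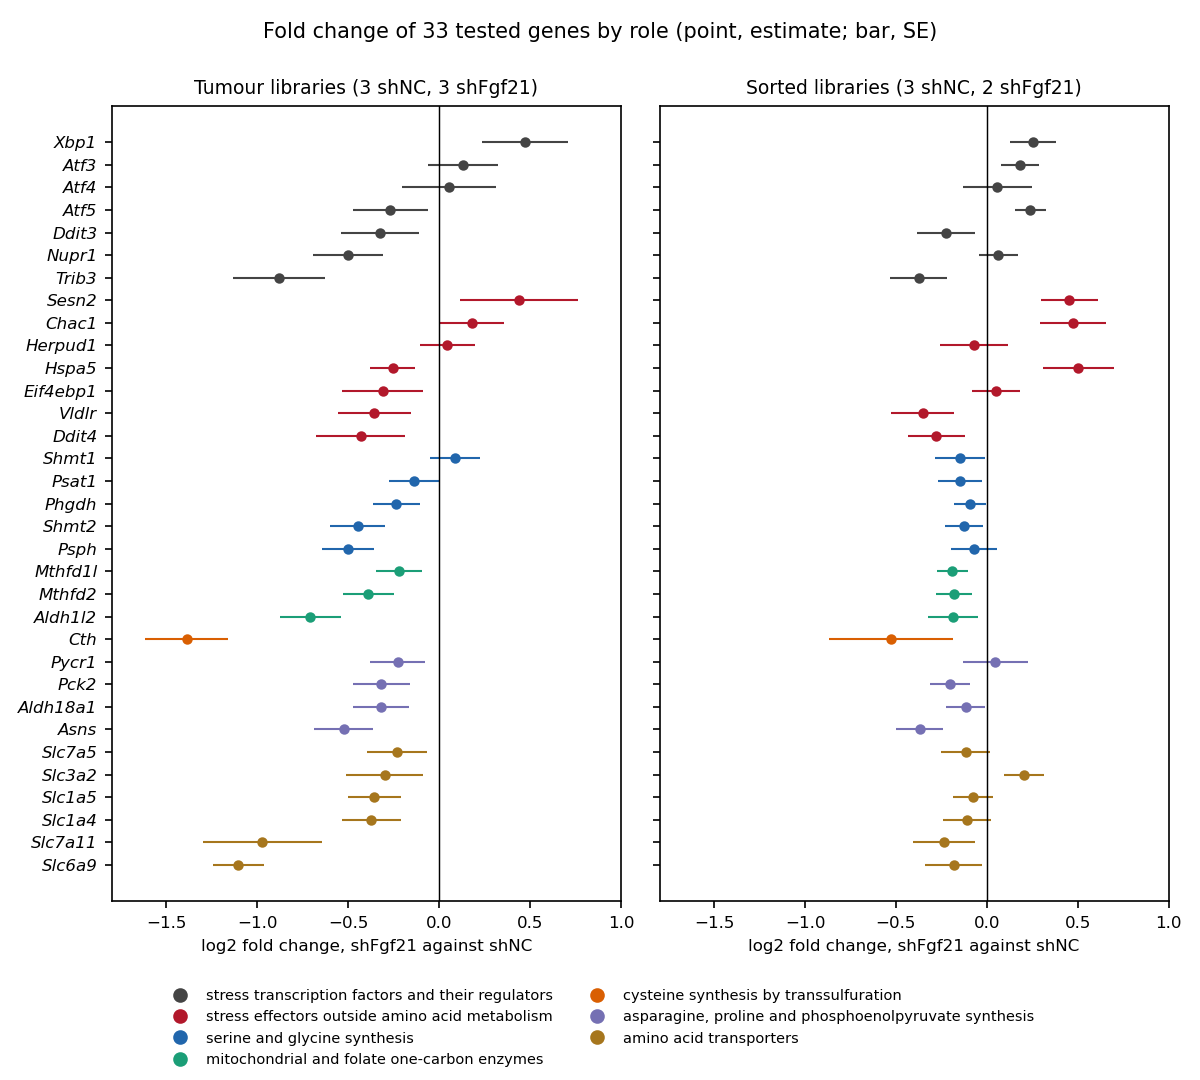
Log2 fold changes of shFgf21 against shNC (x axis; points, edgeR estimates; bars, standard errors) for the 33 tested genes, coloured by role, in tumour libraries (left) and sorted libraries (right). In tumours 26 of 33 points lie left of 0 and all 6 transporters do; in sorted libraries the range is narrower, from -0.53 to 0.50.

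Amino acid transporters held the gene with the smallest p. Slc6a9 (chr4:117834506-117875198), which encodes the glycine transporter GLYT1, was at 81.2, 99.0 and 92.5 CPM in shNC tumours 1, 2 and 6, against 38.7, 42.2 and 45.9 CPM in shFgf21 tumours 1, 2 and 3. The highest shFgf21 library lay well below the lowest shNC library. The log2 fold change was -1.10 ± 0.14 (SE; edgeR adjusted p = 0.0554, lower in 3 of 3), and DESeq2 gave an adjusted p of 1.1e-07. Slc7a11, which brings in cystine in exchange for glutamate, was at 71.7, 28.3 and 46.4 CPM in shNC and 17.9, 29.5 and 27.1 CPM in shFgf21 tumours. Its groups overlapped, because shNC replicate 2 lay between the shFgf21 libraries, and the log2 fold change of -0.97 ± 0.33 (edgeR adjusted p = 0.670) was -0.59 without shNC replicate 1. Slc1a5 and Slc1a4, carriers of glutamine and of neutral amino acids such as serine, had log2 fold changes of -0.36 ± 0.15 and -0.37 ± 0.16, both at an unadjusted p under 0.05. The light chain Slc7a5 (-0.23 ± 0.16) and the heavy chain Slc3a2 (-0.30 ± 0.21), which also pairs with xCT, overlapped between groups.

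In cysteine synthesis, Cth (chr3:157894248-157925077), the enzyme that releases cysteine from cystathionine, was at 14.0, 16.8 and 13.6 CPM in shNC tumours, against 4.23, 6.38 and 6.35 CPM with shFgf21. These are 203, 334 and 256 counts against 70, 98 and 104. No shFgf21 library reached even the lowest shNC level. The log2 fold change, -1.39 ± 0.23 (edgeR adjusted p = 0.139), was the largest of the 33 in either direction.

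The 3 one-carbon enzymes of mitochondria were each lower without overlap between groups. Aldh1l2, which oxidises formyl-folate to make NADPH, was at 117, 148 and 108 CPM in shNC and 64.5, 76.9 and 86.9 CPM in shFgf21 tumours (log2 fold change -0.71 ± 0.17, edgeR adjusted p = 0.454). Mthfd2, the methylene-folate dehydrogenase, was at 94.6 ± 7.40 against 72.2 ± 8.76 CPM (SD, n = 3 each), or -0.39 ± 0.14 on the log2 scale. Mthfd1l, which releases formate, was at 186 ± 17.2 against 160 ± 7.26 CPM, or -0.22 ± 0.13 on the log2 scale.

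Among the 5 enzymes of serine and glycine synthesis, 4 had a fold change below 0. Psph, the phosphatase of the last step to serine, was at 45.3, 41.8 and 37.5 CPM in shNC and 27.7, 28.5 and 31.7 CPM in shFgf21 tumours (log2 fold change -0.50 ± 0.14, edgeR adjusted p = 0.589). Shmt2, the mitochondrial enzyme that splits serine to glycine, was at 162, 179 and 147 against 131, 99.4 and 127 CPM (-0.45 ± 0.15, edgeR adjusted p = 0.670). Both were separated between groups. Phgdh (-0.24 ± 0.13) and the aminotransferase Psat1 (-0.14 ± 0.14) overlapped, and Shmt1, the cytosolic form, lay at 0.09 ± 0.14.

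All 4 genes of asparagine, proline and phosphoenolpyruvate synthesis had fold changes below 0. Asparagine synthetase, Asns (chr6:7675169-7693254), was at 160, 175 and 132 CPM in shNC and 90.6, 117 and 117 CPM in shFgf21 tumours (-0.53 ± 0.16, edgeR adjusted p = 0.640), with no overlap. Pycr1, the last enzyme to proline, was at 19.5 ± 0.917 against 16.6 ± 1.31 CPM (-0.23 ± 0.15), also with no overlap. Aldh18a1, which starts proline synthesis, and Pck2, the mitochondrial phosphoenolpyruvate carboxykinase, both had -0.32 and overlapped.

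**Figure D2:**
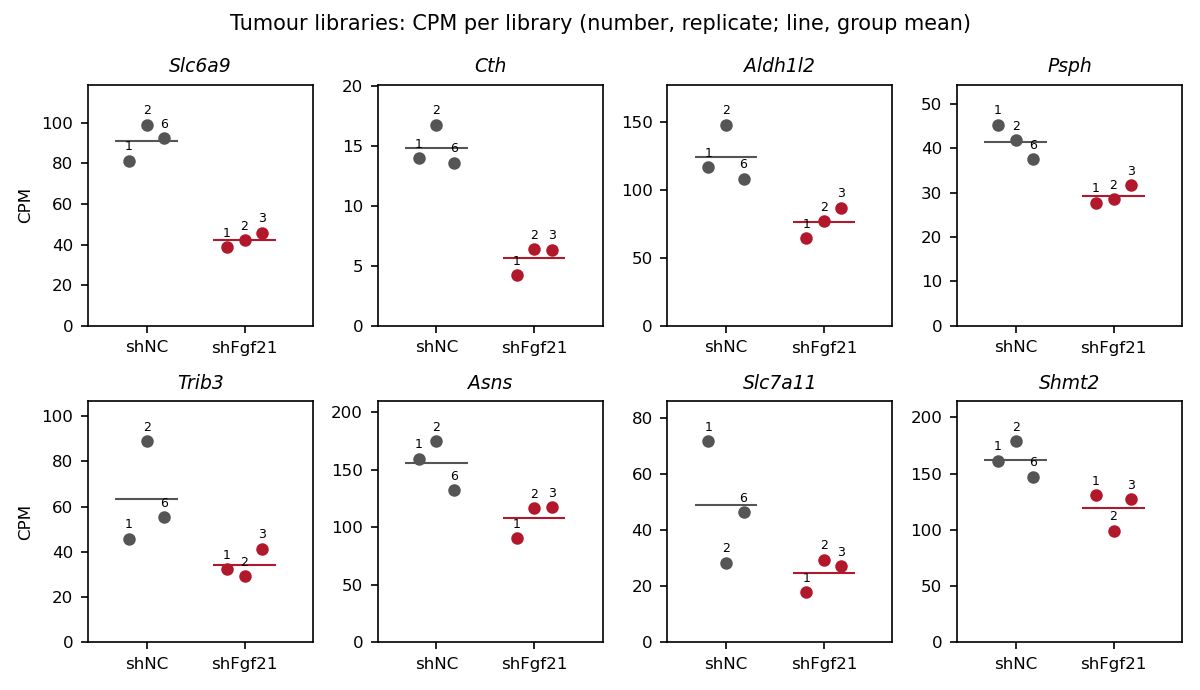
CPM (y axis, scaled within tumour libraries) of the 8 genes with the smallest p in tumours, by hairpin (x axis); each point is a library with its replicate number and the line is the group mean. Slc7a11 is the only one of the 8 whose groups overlap; shNC replicate 2 is the highest library for Trib3, at 88.9 CPM.

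The transcription factors did not move as a block. Atf4 was at 861, 684 and 522 CPM in shNC and 955, 688 and 504 CPM in shFgf21 tumours, so both groups covered almost the same range (0.05 ± 0.26, edgeR adjusted p = 0.989). This is its RNA, and ATF4 is controlled mainly at translation, which was not measured. Trib3, a pseudokinase induced by ATF4 that feeds back on it, was at 45.8, 88.9 and 55.2 against 32.4, 29.4 and 41.4 CPM. These groups did not overlap, but the log2 fold change of -0.88 ± 0.25 (edgeR adjusted p = 0.593) was -0.55 without shNC replicate 2. Nupr1, a stress-induced chromatin regulator, had -0.50 ± 0.19 (unadjusted p = 0.0294), and Ddit3, the factor CHOP, had -0.33 ± 0.21 with overlap. Above 0 were Xbp1, the factor spliced in ER stress (0.47 ± 0.24), and Atf3 (0.13 ± 0.19), both with overlap.

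Stress effectors outside amino acid metabolism were divided in direction. Hspa5 was at 1534, 1333 and 1424 CPM in shNC and 1144, 1171 and 1277 CPM in shFgf21 tumours, lower without overlap (-0.26 ± 0.12, edgeR adjusted p = 0.830). Ddit4 and Sesn2, which both restrain mTORC1, had log2 fold changes of -0.43 ± 0.25 and 0.44 ± 0.32. Sesn2 was at 91.6, 35.7 and 43.4 against 86.6, 64.8 and 79.7 CPM, a wide spread among controls. Vldlr (-0.36), a lipoprotein receptor, Eif4ebp1 (-0.31), a repressor of translation, Chac1 (0.18), which degrades glutathione, and Herpud1 (0.05), of ER-associated degradation, overlapped.

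By library, shNC tumour replicate 2 held the highest level of 17 of the 33 genes (51.5%, against 23.1% of all genes tested). The median member, relative to the shNC mean, was at -0.03, 0.09 and -0.10 in shNC replicates 1, 2 and 6 and at -0.33, -0.37 and -0.18 in shFgf21 replicates 1, 2 and 3 (log2 of CPM + 1). In each shFgf21 library 27 of 33 members were below the shNC mean, where 50.3% to 50.6% of all genes were. The shNC libraries divided around their own mean, with 18, 9 and 23 members below it in replicates 1, 2 and 6. Without shNC replicate 2, 28 members had a fold change below 0.

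Members were also divided by the ATF4 and C/EBP element in their promoter. In tumours 8 of these 11 had a fold change below 0, with a median of -0.36, and 13 of 17 tested members with a matched promoter lacking it did, with a median of -0.27. Slc6a9, with the smallest p, has no such element in its matched windows.

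Other genes of the pathway give context, from 8 lists chosen with earlier results known. In tumours 0 of their members passed the threshold in either direction. Cytosolic aminoacyl-tRNA synthetases, many of them ATF4 targets, were most like the members: 16 of 20 were below 0, with a median of -0.23, 6 were lower at an unadjusted p under 0.05 and 8 were lower without overlap. The tyrosyl enzyme Yars was at 162 against 114 CPM (-0.51 ± 0.14, edgeR adjusted p = 0.588), and the glycyl enzyme Gars at 378 against 296 CPM (-0.36 ± 0.13, edgeR adjusted p = 0.693). Of other amino acid transporters 11 of 13 were below 0, led by the arginine transporter Slc7a2 at 5.13 against 0.559 CPM (edgeR adjusted p = 0.297) and by Slc38a7 (-0.66 ± 0.23).

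The ER branch and the rest of folate and cysteine metabolism had medians near 0. ER chaperones and degradation factors had 8 of 23 below 0 (median 0.04), with Sel1l, of the ER degradation complex, at -0.45 ± 0.17. Kinases and phosphatase subunits of eIF2α had 3 of 8 below 0, with Eif2ak3, the ER stress kinase PERK, at 0.31 ± 0.14. Among ATF4 partners and secreted stress factors 6 of 10 were below 0, with the C/EBP partner Cebpg at -0.44 ± 0.19 and the secreted Stc2 at -0.52 ± 0.21. The folate cycle and glycine cleavage had 6 of 19 below 0, cysteine and glutathione metabolism 7 of 13, and other amino acid synthesis enzymes 5 of 12, with Gpt2 at -0.44 ± 0.19.

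Other lists differed beside the members in tumours. Hypoxia genes had 9 of 11 below 0 (median -0.37), with a summed 3403 to 3694 CPM in shNC and 2980 to 3191 CPM in shFgf21. Of these 11, 6 were lower at an unadjusted p under 0.05 and 6 lower without overlap, against 3.61% and 6.19% of all genes. The glucose transporter Slc2a1 was at -0.68 ± 0.15. Fibroblast markers had 6 of 7 below 0, with sums of 5982 to 7895 and 4506 to 6264 CPM. Of these 7, 4 were lower at an unadjusted p under 0.05 and 2 lower without overlap. Dissociation and immediate early genes summed to 8590 CPM in 1 shNC library, replicate 1, and to 11210 to 17161 CPM in the other five. Endothelial markers had 3 of 3 tested below 0 (median -1.40), with Vwf lower at an unadjusted p under 0.05 and without overlap; their sum was 2.41 to 15.7 CPM in shNC and 2.14 to 3.48 CPM in shFgf21. Macrophage markers had 5 of 5 tested below 0 (median -0.48), none at an unadjusted p under 0.05, with sums of 9.44 to 22.3 and 7.06 to 12.9 CPM. The part of these lists in the members' differences was not tested.

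**Figure D3:**
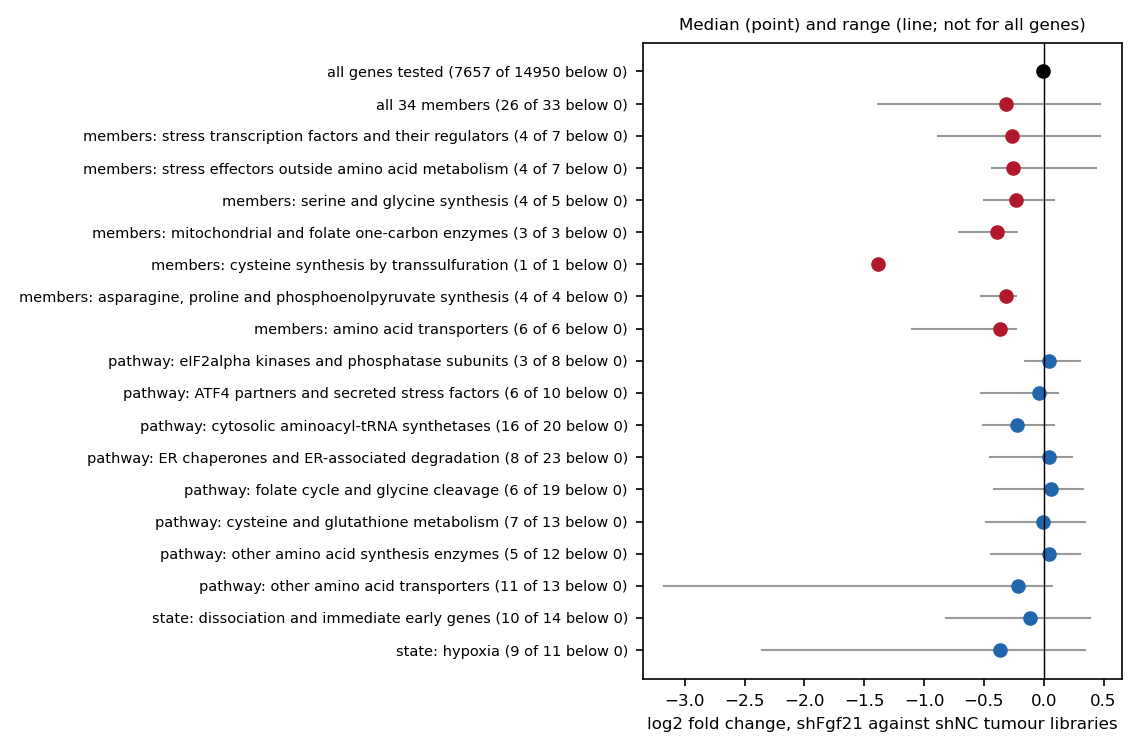
Median (point) and range (line) of log2 fold changes, shFgf21 against shNC tumour libraries (x axis), for all genes tested (black, no range drawn), the members and their roles (red), and other pathway and state lists (blue), with the count below 0 beside each name. The members' median is -0.32, that of tRNA synthetases -0.23, that of hypoxia genes -0.37 and that of ER chaperones 0.04.

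In sorted libraries 5 of 7 stress transcription factors and regulators and 4 of 7 stress effectors were above 0, and all tested enzymes of amino acid and one-carbon metabolism but Pycr1 were below. Of 33 members 0 passed the threshold over 16454 genes, where 13 of all genes (0.0790%) did, and 0 passed by DESeq2 or limma voom. The fold change was below 0 for 22 members (51.8% of all genes), with a median of -0.12 against -0.0105 over all genes. At an unadjusted p under 0.05, 4 members (12.1%, against 5.89% of all genes) were higher and 2 (6.06%, against 5.31%) lower. Groups did not overlap for 7 higher and 7 lower members (21.2% each, against 14.5% and 15.0% of all genes). Without shFgf21 replicate 2, the library labelled FGF22, 18 members were below 0 and the median was -0.07; at an unadjusted p under 0.05, 1 member was higher and 0 lower, and 0 were lower also without shNC replicate 3. The single library left lay above all shNC libraries in 9 members (27.3%, against 25.7% of all genes) and below them in 11 (33.3%, against 27.2%).

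Of the 7 members higher without overlap (21.2%, against 14.5% of all genes), most were stress effectors and transcription factors, and 0 were called. Sesn2 was at 45.3, 40.1 and 37.4 CPM in shNC replicates 1 to 3 and at 65.0 and 47.2 CPM in shFgf21 replicates 1 and 2 (log2 fold change 0.45 ± 0.16, edgeR adjusted p = 0.364). It was 0.67 without shFgf21 replicate 2 and 0.21 without shFgf21 replicate 1, so the size rested on replicate 1. Chac1 was at 12.9, 10.6 and 9.12 against 14.3 and 16.0 CPM (0.48 ± 0.18, edgeR adjusted p = 0.395; 0.39 without replicate 2). Hspa5 was at 1401, 973 and 872 against 1630 and 1434 CPM (0.50 ± 0.20, edgeR adjusted p = 0.405; 0.59 without replicate 2). In Hspa5 shNC replicate 1 lay close below the lower shFgf21 library, while its 2 partners lay far below. Atf5 was at 124, 131 and 123 against 152 and 145 CPM (0.24 ± 0.09, edgeR adjusted p = 0.382; 0.28 without replicate 2). Atf3, Xbp1 and Slc3a2 were also higher without overlap, at log2 fold changes of 0.18, 0.25 and 0.20 (0.07, 0.27 and 0.18 without replicate 2).

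Of the 7 members lower without overlap (21.2%, against 15.0% of all genes), most were enzymes, and 0 were called. Asns was at 58.8, 62.8 and 65.2 against 54.0 and 42.5 CPM (-0.37 ± 0.13, edgeR adjusted p = 0.368), and -0.21 without replicate 2. Trib3 was at 30.1, 28.1 and 32.2 against 26.7 and 19.8 CPM (-0.38 ± 0.16, edgeR adjusted p = 0.426), and -0.17 without it, or -0.61 without shFgf21 replicate 1. Vldlr was at 33.2 ± 0.187 CPM in shNC (SD, n = 3) against 31.2 and 20.8 CPM (-0.35 ± 0.17, edgeR adjusted p = 0.502), and -0.09 without it, or -0.67 without shFgf21 replicate 1. In these 3 genes replicate 2 was the lowest library and carried most of the difference. Mthfd1l was tight in both groups, at 112, 111 and 112 against 96.9 and 99.0 CPM (-0.19 ± 0.09, edgeR adjusted p = 0.466; -0.20 without replicate 2). Phgdh, Mthfd2 and Pck2 were lower without overlap too, at -0.09, -0.18 and -0.20 (-0.07, -0.23 and -0.31 without replicate 2). All 5 serine and glycine enzymes and all 3 one-carbon enzymes were below 0, none at an unadjusted p under 0.05; without replicate 2 these were 4 and 3. The amino acid transporters were less settled, with 5 of 6 below 0 and 2 of 6 without replicate 2. Atf4 was at 378, 574 and 503 against 433 and 576 CPM (0.06 ± 0.19, edgeR adjusted p = 0.942).

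**Figure D4:**
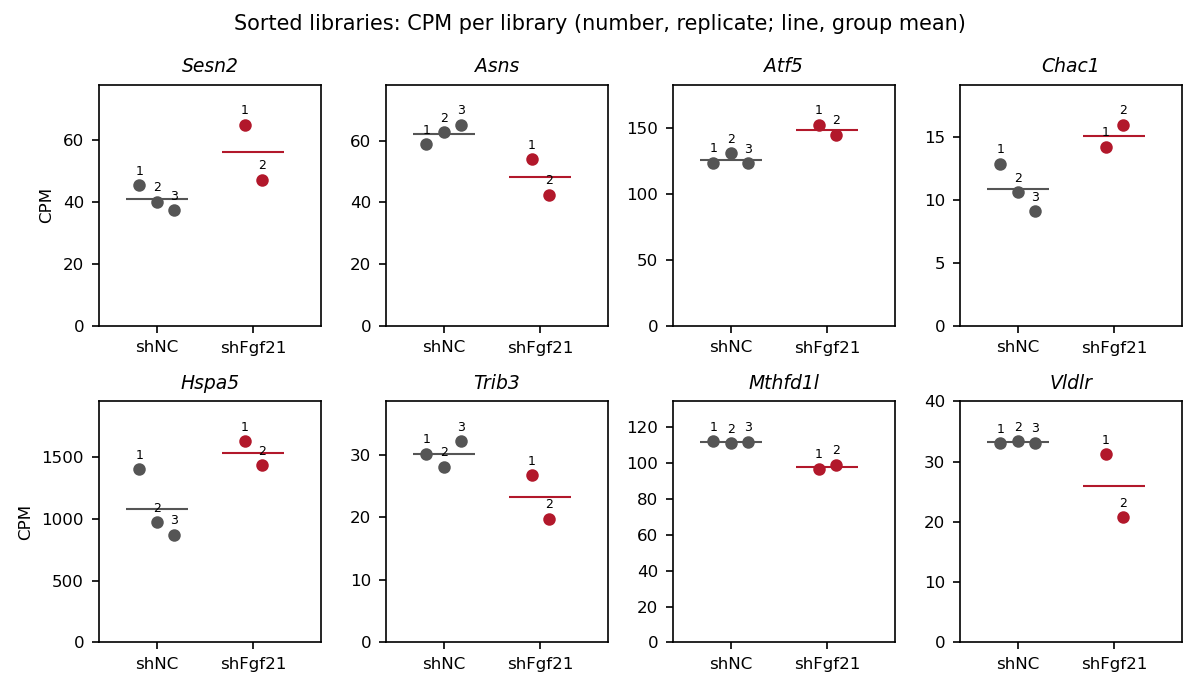
CPM (y axis, scaled within sorted libraries) of the 8 genes with the smallest p in sorted libraries, by hairpin (x axis); each point is a library with its replicate number and the line is the group mean. Groups do not overlap in any of the 8, and for Asns, Trib3 and Vldlr the separation is widest in shFgf21 replicate 2.

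Marker genes differed beside these values in the sorted libraries. The macrophage sum was 10513 to 12897 CPM in shNC and 16617 and 18172 CPM in shFgf21 replicates 1 and 2. All 10 macrophage markers were above 0 and 8 were higher without overlap, against 14.5% of all genes. The T cell sum was 263 to 537 against 305 to 365 CPM, with 6 of 9 markers below 0 (median -0.45). Epithelial markers had 2 of 2 tested below 0 (median -1.15), and endothelial markers 4 of 4 (median -0.39). Neutrophil markers summed to 76.8 to 150 against 61.0 to 69.7 CPM, with Retnlg close to 0 in shFgf21. All 11 hypoxia genes were below 0 (median -0.30). Without shFgf21 replicate 2, 10 of these 11 were below 0 (median -0.15), and 9 of the 10 macrophage markers were above 0. The part of these lists in the members' differences was not tested, and in such bulk libraries fewer cells of a type and less RNA per cell cannot be told apart.

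Of the pathway lists in sorted libraries 0 genes passed the threshold, and some lists lay opposite to the members of like function. For transporters this held only with shFgf21 replicate 2 included. Without it 41.7% of other amino acid synthesis enzymes were below 0 (median 0.08), against 51.9% of all genes, so their opposition was weak. ER chaperones and degradation factors had 17 of 23 above 0 (16 without shFgf21 replicate 2), with the chaperone Hyou1 at 0.43 ± 0.10 (edgeR adjusted p = 0.218; 0.37 without it). The tRNA synthetases had 15 of 20 below 0 (14 without it), with the leucyl enzyme Lars at -0.27 ± 0.09 (edgeR adjusted p = 0.337; -0.25 without it). Other amino acid synthesis enzymes had 10 of 12 above 0 (median 0.15; 7 without replicate 2), whereas most enzymes among the members were below. Other amino acid transporters had 10 of 14 above 0 (10 of 15 without it), with Slc43a2 at 0.58 ± 0.16 (0.51 without it). Of the 6 transporters among the members 5 were below 0, but without replicate 2 only 2 were below and 4 above. Bbc3, the cell death effector PUMA and an ATF4 and p53 target, was at 64.8 against 99.4 CPM (0.62 ± 0.10, edgeR adjusted p = 0.130; 0.58 without replicate 2).

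Whether the hairpin's effect differed between tumour and sorted libraries was tested with an interaction term over the 4 groups. Of 33 members 0 passed the threshold over 17327 genes, where 1 of all genes (0.00577%) did. The difference, tumour minus sorted, was below 0 for 30 of 33 members against 52.7% of all genes (median -0.22 against -0.0196), and 6 were lower at an unadjusted p under 0.05 (18.2%, against 2.89% of all genes) and 0 higher (against 1.88%). These 6 numbered 3 without shNC sorted replicate 1 or without shNC sorted replicate 2. Without the library labelled FGF22 they numbered 4, with 29 members below 0 and a median of -0.28. Slc6a9 had the smallest p, with a difference of -0.94 ± 0.21 (edgeR adjusted p = 0.531; -1.11 without the library labelled FGF22), and DESeq2 gave it an adjusted p of 0.0367. In sorted libraries it was at 25.9, 31.3 and 27.1 CPM in shNC replicates 1 to 3 and 28.2 and 21.4 CPM in shFgf21 replicates 1 and 2, with overlap, against the separation in tumours given above. Hspa5 followed at -0.77 ± 0.24 (unadjusted p = 0.00778, edgeR adjusted p = 0.99997; -0.85 without the library labelled FGF22), and it was the member that was lower without overlap in tumours and higher without overlap in sorted libraries.

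The other 6 of the 8 members with the smallest p were Psph, Nupr1, Aldh1l2 and Cth, lower at an unadjusted p under 0.05, and Atf5 and Slc3a2, which were not. Psph (-0.44, or -0.38 without the library labelled FGF22) was at 18.3, 18.6 and 17.6 against 16.7 and 17.8 CPM in sorted libraries. Aldh1l2 (-0.54, or -0.64 without it) was at 39.3, 34.9 and 43.4 against 37.4 and 31.6 CPM there. Cth (-0.88, or -0.53 without it) was at 2.30, 2.61 and 3.79 against 1.60 and 2.42 CPM there, on 24 to 64 counts a library. All 3 overlapped between hairpins in sorted libraries and were separated in tumours.

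Nupr1 (-0.58, or -0.67 without the library labelled FGF22) was at 139, 219 and 186 against 120, 114 and 151 CPM in tumours, and at 108, 113 and 121 against 128 and 110 CPM in sorted libraries, with overlap in both. Atf5 (-0.52, or -0.55 without that library) was at 205, 352 and 241 against 205, 210 and 248 CPM in tumours. There shNC replicate 2 stood far above the rest, and without it the difference was -0.26. Slc3a2 (-0.51, or -0.48 without the library labelled FGF22) was at 362, 294 and 224 against 284, 188 and 243 CPM in tumours, with overlap, and at 276, 340 and 323 against 353 and 367 CPM in sorted libraries, without.

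Between the control groups, which hold no Fgf21 hairpin, the members were mostly lower in sorted than in tumour libraries. Over 16104 genes, 22 of 33 members passed the threshold, where 31.0% of all genes did. Of these, 21 were lower (63.6%, against 11.9% of all genes), and Atf3 alone was higher (against 19.1%). The log2 fold change was below 0 for 28 members (84.8%, against 51.4% of all genes), with a median of -0.68 against -0.0182. All 5 serine and glycine enzymes, all 3 one-carbon enzymes, Cth, and all 4 genes of asparagine, proline and phosphoenolpyruvate synthesis were lower in sorted libraries. These shNC libraries are also the controls of both hairpin comparisons.

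The lower genes led with Cth, at 2.46, 2.78 and 4.05 CPM in sorted replicates 1 to 3 and 13.4, 16.3 and 13.0 CPM in tumours 1, 2 and 6 (log2 fold change -2.19 ± 0.24, edgeR adjusted p = 0.000305). Slc6a9 was at 27.7, 33.3 and 29.0 against 77.5, 95.8 and 88.4 CPM (-1.54 ± 0.13, edgeR adjusted p = 7.3e-05). Aldh1l2 was at 42.1, 37.2 and 46.4 against 111, 143 and 103 CPM (-1.51 ± 0.16, edgeR adjusted p = 0.000213). In all 3 the highest sorted library lay at less than the lowest tumour library. Vldlr was at 35.4 ± 0.108 against 86.9 ± 9.12 CPM (-1.29 ± 0.12, edgeR adjusted p = 9.8e-05), Slc1a4 at 30.8 ± 3.35 against 71.3 ± 8.49 CPM (-1.21 ± 0.14, edgeR adjusted p = 0.000392), and Asns at 66.5 ± 3.39 against 149 ± 21.6 CPM (-1.17 ± 0.13, edgeR adjusted p = 0.000342; SD, n = 3 each). Lower by 0.44 to 1.15 on this scale were the other called genes: Shmt1, Slc1a5, Mthfd2, Mthfd1l, Pck2, Psat1, Shmt2, Trib3, Aldh18a1, Atf5, Chac1, Psph, Slc7a5, Phgdh and Pycr1.

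Atf3 was the exception, at 1063, 1103 and 1106 CPM in sorted and 511, 354 and 551 CPM in tumour libraries (1.21 ± 0.17, edgeR adjusted p = 0.00117). It is also an immediate early gene of handled cells. The list of 14 dissociation genes, which does not include it, had 6 higher and 2 lower past the threshold, where 19.1% and 11.9% of all genes were. The part of handling in the Atf3 difference was not tested. Members that missed the threshold were 11, mostly regulators and ER genes: Atf4 (-0.35 ± 0.22, edgeR adjusted p = 0.257), Ddit3, Nupr1 (adjusted p = 0.0512), Xbp1, Sesn2, Ddit4, Eif4ebp1, Hspa5, Herpud1, Slc7a11 and Slc3a2. Slc7a11 was at 70.7 ± 11.7 in sorted against 46.7 ± 20.6 CPM in tumour libraries (0.60 ± 0.30, edgeR adjusted p = 0.173).

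**Figure D5:**
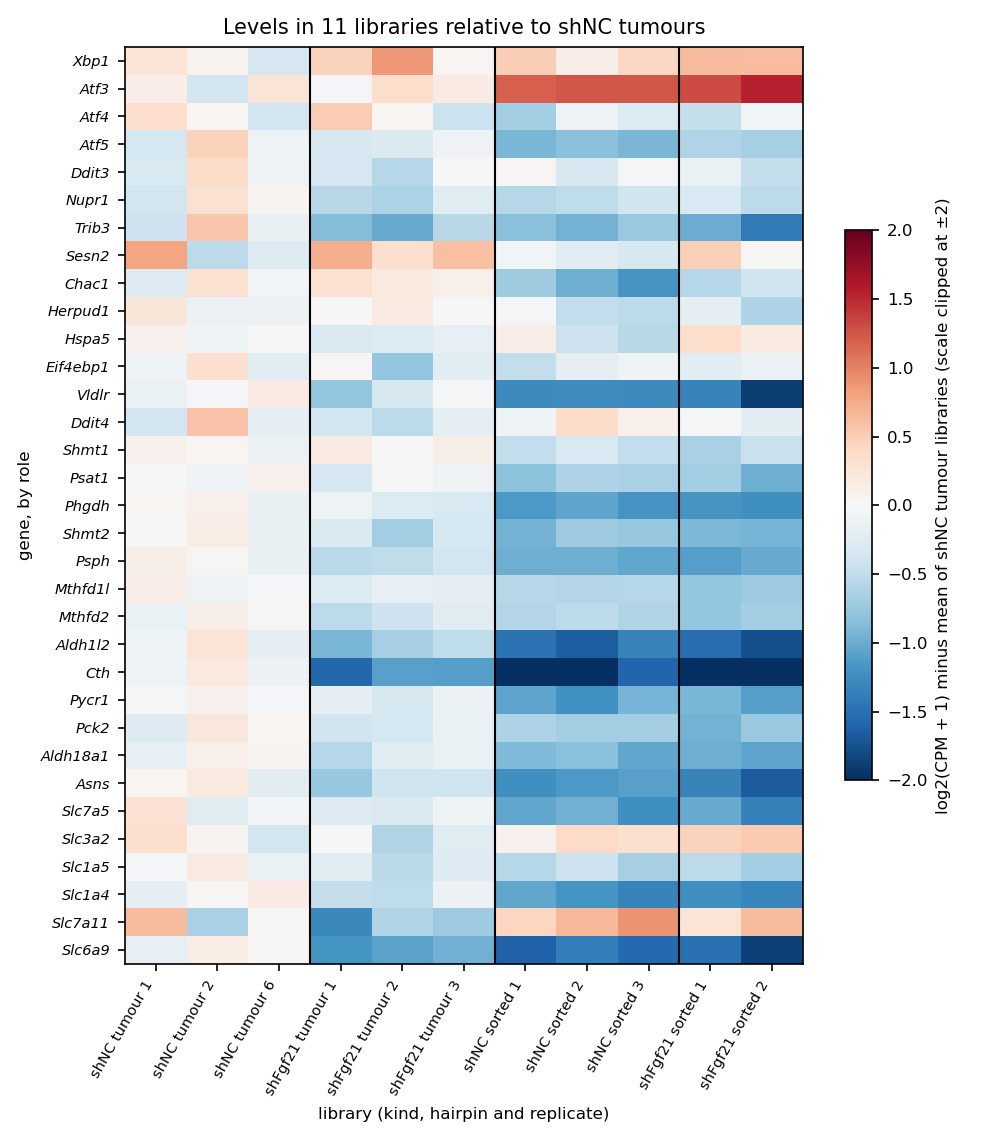
Levels of the 33 tested genes (rows, by role) in the 11 libraries (columns), as log2(CPM + 1) minus the mean of shNC tumour libraries, with CPM scaled over all 11 and colours clipped at ±2. Cth, Slc6a9, Aldh1l2, Asns and Vldlr are lower in sorted than in tumour libraries, Atf3 is higher there, and shFgf21 tumours lie between for Cth, Slc6a9 and Aldh1l2.

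The tRNA synthetases were again like the members, with 15 of 20 lower past the threshold and 0 higher, the alanyl enzyme Aars at -0.89 ± 0.11 (edgeR adjusted p = 0.000659) and Gars at -0.77 ± 0.10 (edgeR adjusted p = 0.00071). Other amino acid transporters went the opposite way, with 8 higher and 3 lower of 14 tested. Slc7a2 was at 247 CPM in sorted against 4.92 CPM in tumour libraries, Slc7a8 at 147 against 0.353 CPM, Slc43a2 at 83.8 against 4.08 CPM and Slc7a7 at 20.5 against 1.16 CPM. ER chaperones and degradation factors had 3 of 23 higher and 0 lower: Sdf2l1 (1.73 ± 0.17), Edem1 (1.25 ± 0.17) and Pdia4 (0.42 ± 0.11). Ppp1r15a, the stress-induced subunit that directs eIF2α dephosphorylation, was higher (1.08 ± 0.21, edgeR adjusted p = 0.00631), as were Cebpb, a C/EBP factor (0.99 ± 0.18), and Ass1, of arginine synthesis (2.45 ± 0.22). The folate and glycine cleavage list had 4 higher and 3 lower of 19 tested, and the cysteine and glutathione list 2 higher and 1 lower of 14. Over all genes tested, 19.1% were higher and 11.9% lower past the threshold. The counts of the ER, folate and cysteine lists lay near or below these shares.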

How the data were processed

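Bulk RNA sequencing gave 11 libraries. The authors deposited raw counts and FPKM values in 1 table of 55487 identifiers. Per the submitters' processing notes, the build was mm10. For aligner, counter, annotation and strandedness the sources used here give nothing, so reads of overlapping or antisense genes cannot be told apart. The deposited FPKM equal the count over a fixed gene length and the library total and served only to compare levels between genes. For some genes, such as Atf4 and Hspa5, that length exceeds the locus, so the order of genes is approximate.

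The deposited counts went unchanged into edgeR 4.0.16 in R 4.3.3 (filterByExpr, TMM, quasi-likelihood F-test, Benjamini-Hochberg over all genes tested, threshold 0.05). Standard errors are the log2 fold change over the square root of F. CPM values are scaled by TMM within their comparison; list sums and the heatmap use factors over 11 libraries. Replicates are named by the labels or numbered in accession order.

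Members and lists were chosen with earlier results of these data known, and no test over a list was made. Values per library are given for the 8 members with the smallest p in each comparison that involves the hairpin, and for up to 6 called members per direction between control groups; from pathway lists, up to 4 past the threshold or 2 with the smallest p. Other genes named were chosen after their values were seen. Ddit3 is listed under 2 identifiers, and that with more counts was used. Promoters came from RefSeq (GRCm38.p6). Alternatives were median-ratio size factors, no filter, a mean of at least 5 CPM, DESeq2 1.42.0, limma 3.58.1 voom, all 4 groups in one fit, the number in tumour titles as a block, and leaving out each library. The fits were tested on simulated counts beforehand.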

Additional observations from a re-analysis of the deposited data

How the results depend on the processing

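No median, and no member given with values per library, changed direction in the comparison it was chosen from under any alternative run. In tumours, members past the threshold numbered 3 by DESeq2, 1 by limma voom (Slc6a9, adjusted p = 0.0136), 1 with all 4 groups in one fit (Slc6a9, adjusted p = 0.0194) and 2 with the title number as a replicate block (Slc6a9, adjusted p = 0.0329, and Cth, adjusted p = 0.0244). All genes past the threshold there numbered 115, 21, 26 and 131 against 5. Under the block the members' median was -0.43. The numbers 1 and 2 are shared by the hairpins, and no label says what they mark. The remaining tumour library of each hairpin has a number of its own, so under the block it added nothing to the hairpin effect. The block result therefore rested on the libraries numbered 1 and 2 alone, with little left to measure spread. Its calls and median do not describe the full tumour set. Same-numbered libraries correlated at 0.15 and -0.18 in their deviations over 14950 genes, and differently numbered pairs at -0.26 to 0.16. These 2 values cannot show whether the numbers mark a pairing. For the interaction, DESeq2 called 1 member among 33 genes, against 1 gene in the main result, 4 without a filter, 3 by limma voom and 0 with a minimum mean level of 5 CPM; that filter left 1 called gene in tumours. In sorted libraries, genes past the threshold numbered 246 by DESeq2 and 1 without a filter or with all 4 groups, against 13, with 0 members among them.

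Leaving out 1 library, tumour members past the threshold stayed at 0 (smallest adjusted p 0.0527 to 0.386) with a median of -0.40 to -0.24 and 26 to 28 below 0. Sorted members past it were 0, with a median of -0.13 to -0.07 and 18 to 24 below 0, and for the interaction 0, with a median of -0.31 to -0.20 and 24 to 30 below 0. Between control groups 19 to 23 members were called, with a median of -0.68 to -0.58. All genes called ranged from 0 to 8 in tumours, 0 to 34 in sorted libraries and 0 to 4 for the interaction. Cbs, with at most 9 counts in a library, could not be tested at this depth.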
